A study of Homo sapiens with 6 samples.

Results

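Transcription factors that pattern the Müllerian duct, which forms the uterus and oviducts, and the kidney were examined in the human endometrial cancer line AN3CA after knockdown of *PAX2*. The 9 genes named were *WT1*, *LHX1*, *EMX2*, *SALL1*, *GATA2*, *GATA3*, *FOXA2*, *OSR1* and *MEIS1*. They were taken by symbol from a table of 17471 genes, in which 8 of the 9 had a row, and *FOXA2* was not analysed here. RNA-seq libraries came from 3 samples with the empty vector (shEV) and 3 with a hairpin that targets *PAX2* (shPAX2). The labels give the genotype as WT for shEV and PAX2 KD for shPAX2. Cells of both groups were of the same line, and per the labels both were transduced and selected with puromycin. Knockdown rested on 1 hairpin, delivered by a lentivirus. The study's methods give an empty vector as the control, while its text elsewhere calls it scrambled. Nothing in the labels says that the replicates were separate cultures, so the p-values below measure only the spread between these libraries.

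Kidney, gonad and Müllerian duct all arise from the intermediate mesoderm. *OSR1* is among the earliest genes switched on there, and *PAX2*, *LHX1*, *GATA3* and *EMX2* act in the duct epithelia that grow from it, while *WT1* and *SALL1* act in the mesenchyme that becomes the nephron. *FOXA2* is needed for endometrial glands, *GATA2* is a cofactor of the progesterone receptor in the uterus, and *MEIS1* encodes a homeodomain protein that binds DNA together with HOX and PBX proteins.

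Levels are given as TPM, reads scaled by gene length and library total, so that they can be compared between genes. Values of single libraries are listed throughout in the order of their replicate numbers, and means are given ± SD over the 3 libraries of a group. Whole reads behind each value were recovered from the table, since several of these genes rested on few of them. The total was 10730909 to 18221859 reads in shEV libraries and 19422615 to 29405787 in shPAX2 libraries, so every shPAX2 library was deeper. The targeted gene was examined first. *PAX2* (chr10:102495153-102589701, GRCh37) measured 4.03, 3.66 and 2.74 TPM in the shEV libraries and 0.916, 0.723 and 1.17 TPM in the shPAX2 libraries. All shPAX2 libraries were lower than all shEV libraries, and the shPAX2 mean was 26.9% of the shEV mean, with a log2 fold change of -1.47 (SE 0.18, limma adjusted p 0.000294). The labels call the cells epithelial. Of 15 markers of endometrial epithelium, 12 had a row and only *KRT18* reached a mean of 1 TPM over the 6 libraries. *CDH1*, *EPCAM*, *PAX8* and *ESR1* had at most 4, 6, 1 and 1 reads in any library. The summed epithelial level was 11.2 to 13.7 TPM in shEV and 12.4 to 18.2 TPM in shPAX2. Stromal markers summed to 4896 to 5299 TPM in shEV and 4362 to 4556 TPM in shPAX2, with 3 of 8 at a mean of 1 TPM or more. The sum is mostly *VIM*, at a mean of 4212 TPM in shEV and 3808 TPM in shPAX2, and the other markers differed in direction. *COL1A2* went from 836 to 390 TPM and *COL3A1* from 35.1 to 242 TPM, and the part of these shifts in the results below was not tested. Smooth muscle markers rested on *ACTA2* and summed to 59.1 to 77.8 TPM in shEV and 225 to 357 TPM in shPAX2, and their part in the results below was not tested. None of the endothelial or leukocyte markers reached a mean of 1 TPM, and of the markers of the differentiated nephron only *SLC12A3* did.

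The 8 genes differed widely in level. *GATA2* lay above 87.9% of all listed genes in shEV and 90.0% in shPAX2. *OSR1* and *MEIS1* followed in shEV at 10.0 ± 0.701 and 9.74 ± 0.758 TPM (SD, n = 3 each, as for every mean below), with overlapping libraries, and in shPAX2 *MEIS1* was the higher, at 6.64 ± 0.162 against 5.41 ± 0.930 TPM, without overlap. *GATA3* and *EMX2* stood near or below 1 TPM and exchanged places, since *GATA3* was higher than *EMX2* in every shEV library and lower in every shPAX2 library. *SALL1*, *LHX1* and *WT1* were at or near 0 in both groups.

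**Figure D1:**
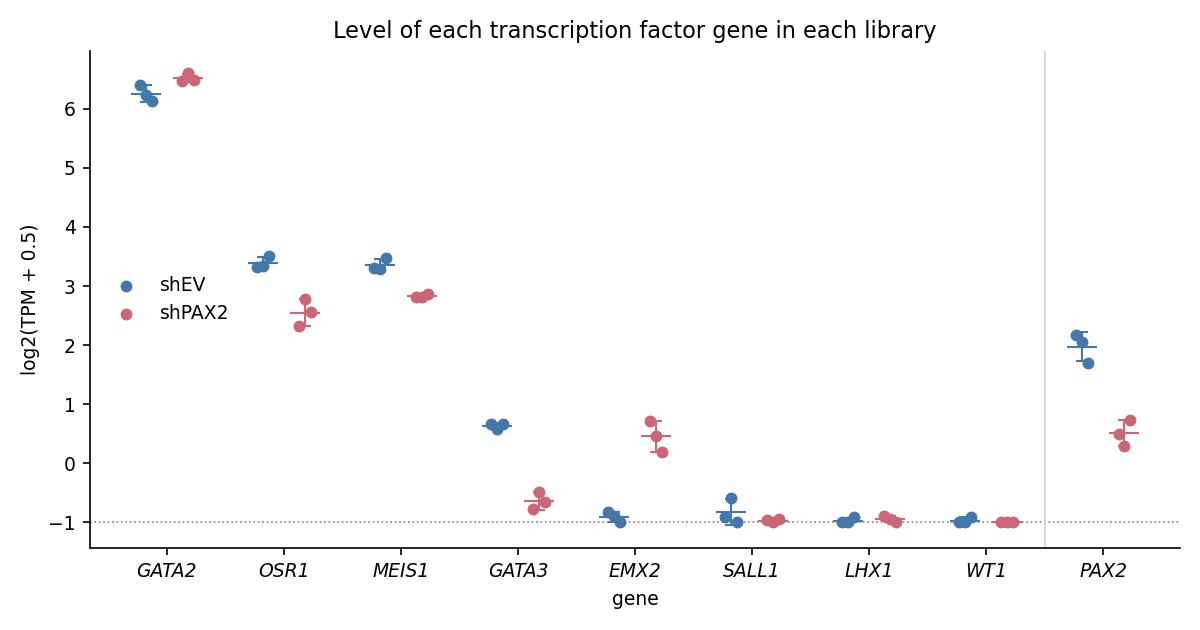
Level of each gene in each library, with log2(TPM + 0.5) on the vertical axis and the genes on the horizontal axis, *PAX2* at the right. Points are libraries (blue shEV, red shPAX2), bars the group mean and SD of 3 libraries, and the dotted line a TPM of 0. *GATA2* is highest at 69.6 to 96.5 TPM, *GATA3* and *EMX2* exchange places, and *SALL1*, *LHX1* and *WT1* lie on or near the dotted line.

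Genes with at least 0.5 TPM in at least 3 libraries were tested with limma on log2(TPM + 0.5), 3 shPAX2 against 3 shEV, with Benjamini-Hochberg adjustment over all 13163 genes tested. Of the 8 genes, 5 were tested and 3 (*SALL1*, *LHX1*, *WT1*) lay below the filter. The threshold was an adjusted p under 0.05 with a log2 fold change of at least 1 in size. It was passed by 2 of the 5, against 4.54% of all genes tested. *EMX2* passed in the higher direction (1.43% of all tested genes) and *GATA3* in the lower (3.11%). Without a fold threshold all 5 had an adjusted p under 0.05, against 42.8% of all tested genes, with *EMX2* and *GATA2* higher (12.2%) and *GATA3*, *OSR1* and *MEIS1* lower (30.5%). For each of the 5 the libraries of the groups did not overlap, as for 54.9% of all tested genes. *EMX2* passed the filter through its shPAX2 libraries and *GATA3* through its shEV libraries, so for these the counts over tested genes carry no weight of their own. Over all tested genes the median log2 fold change was -0.10 on the TPM scale and -0.00018 after median-of-ratios scaling.

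RefSeq promoter windows (GRCh38.p14 table, from 250 bases before to 50 after a transcription start) were held for 5 of the 9 genes, *EMX2*, *GATA2*, *GATA3*, *MEIS1* and *WT1*, and for *PAX2*. They were found by sequence in GRCh37, and 6 motifs were searched on both strands. The core GTCACGC of PAX2, PAX5 and PAX8 was in none of these windows, and in 2.52% of all 35116 windows. The GATA core AGATAA was likewise in none, and in 10.3% of all. The stretches below, 30 bases each, surround the matches found in the window at the start of the main annotated transcript, and are shown because these are the promoters of the genes whose levels follow. Capitals mark the match, which in *EMX2* is TAATTA (LHX and EMX homeodomains, 4.84% of all windows), in *PAX2* TGACAG (MEIS, 15.8%) and in the others GNGTGGGNG or its reverse complement (WT1 and EGR zinc fingers, 16.2%). TAATTA reads the same on both strands.
EMX2: tgatccccgcacTAATTAggctcatgaact
GATA3: cgggcctCGCCCACCCtgcccgccgcccct
GATA2: gctccggagaGGGTGGGAGcggcctggagt
MEIS1: tcgcttcgcgCACCCACCCctgccgaggag
WT1: ttcaaggcagCGCCCACACccgggggctct
PAX2: ccggcaccggagTGACAGgctcggggccct

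In GRCh37 the stretches lie at chr10:119302215-119302244 (*EMX2*), chr10:8096401-8096430 (*GATA3*), chr3:128212234-128212263 (*GATA2*), chr2:66662155-66662184 (*MEIS1*), chr11:32457037-32457066 (*WT1*) and chr10:102505149-102505178 (*PAX2*), each written along its gene's strand, which is minus for *GATA2* and *WT1*. Counted from the transcription start, the matches begin at -30 in *EMX2*, -243 in *GATA3*, -209 in *GATA2*, -92 in *MEIS1*, 29 in *WT1* and -178 in *PAX2*. The annotation places the *EMX2* stretch in the 5′ UTR of a longer *EMX2* transcript and the *WT1* stretch in a *WT1* UTR and an exon of its antisense gene *WT1-AS*. Those of *GATA3*, *MEIS1* and *PAX2* are intronic to longer transcripts of the same gene, and that of *GATA2* is intronic to *GATA2-AS1*. These are matches of letters, and no binding was measured. The share over all windows was not matched for GC content, which was 72.3% in the *GATA2* window, 70% in *WT1* and 69.3% in *GATA3*. It was 58.3% in *MEIS1*, and the median of all windows was 58.7%. The FOXA motif TGTTTAC (3.42% of all windows) was in none of the windows shown. It was in a window at another *WT1* start, with the match beginning at 42. Matches to other motifs in windows at other starts of *GATA3*, *WT1* and *PAX2* are not shown.

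*EMX2*, a homeodomain factor without which the urogenital tract fails to form, was the gene that rose most. It lies at chr10:119301956-119309057 on the plus strand. Its shEV libraries measured 0.0643, 0.0391 and 0 TPM, which is 1, 1 and 0 reads. Its shPAX2 libraries measured 1.15, 0.871 and 0.637 TPM, which is 51, 34 and 18 reads. It was thus close to undetected in shEV and low in shPAX2, with every shPAX2 library above every shEV library. The mean went from 0.0345 ± 0.0324 to 0.886 ± 0.257 TPM. Pooled over the libraries and scaled to their depth, the reads were 31.0 times as many in shPAX2, with a 95% counting interval of 8.38 to 260 that covers counting error only. The log2 fold change of *EMX2* was 1.36 (SE 0.20, 95% interval 0.90 to 1.82, limma adjusted p 0.000918), which the pseudocount shrinks at this level. It was 4.33 with voom on the recovered reads and 0.86 with a pseudocount of 1. Of the tested genes, 133 had a higher log2 fold change. That rank carries no weight of its own, since *EMX2* passed the filter only through its shPAX2 libraries. In bulk RNA, a change in the number of cells expressing a gene and a change in RNA per cell cannot be told apart.

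Of 8 antisense or divergent transcripts beside these genes, 3 had a row and none reached the filter for testing. *EMX2OS*, transcribed from the opposite strand, shares a gene span of 2624 bases with *EMX2* (chr10:119301956-119304579). Its shEV libraries held 2 reads each, or 0.102, 0.0622 and 0.0608 TPM, and its shPAX2 libraries 26, 31 and 20 reads, or 0.467, 0.632 and 0.563 TPM. Both genes of the locus were therefore higher in every shPAX2 library. With every gene tested, the *EMX2OS* log2 fold change was 0.87 (limma adjusted p 0.000783). Its depth-scaled reads were 7.74 times as many in shPAX2 (95% counting interval 3.40 to 21.7). The library kit keeps strand, but the strand setting of the counting is not given in the sources used here, so reads of the shared span cannot be assigned to either gene with certainty.

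*GATA3*, a zinc finger factor needed for the nephric duct, moved the other way. It lies at chr10:8087341-8117161 on the plus strand. Its shEV libraries measured 1.09, 0.995 and 1.08 TPM (18, 27 and 30 reads), and its shPAX2 libraries 0.0851, 0.217 and 0.134 TPM (4, 9 and 4 reads). The shEV libraries were close to each other, and every shPAX2 library lay far below them. The mean fell from 1.06 ± 0.0533 to 0.145 ± 0.0670 TPM, to 13.8% of the shEV level. Depth-scaled reads were 7.32 times as many in shEV (95% counting interval 4.28 to 13.2). The log2 fold change was -1.27 (SE 0.17, 95% interval -1.67 to -0.88, limma adjusted p 0.000564). It was -2.84 with voom and -0.85 with a pseudocount of 1. Of the tested genes, 256 had a lower log2 fold change. This rank too carries no weight of its own, since *GATA3* passed the filter only through its shEV libraries. *GATA3-AS1*, which overlaps *GATA3* on the opposite strand over 3035 bases of gene span, held 2, 3 and 1 reads in the shEV libraries against 0, 2 and 1 in the shPAX2 libraries, too few to show a difference (limma adjusted p 0.147 without a filter).

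**Figure D2:**
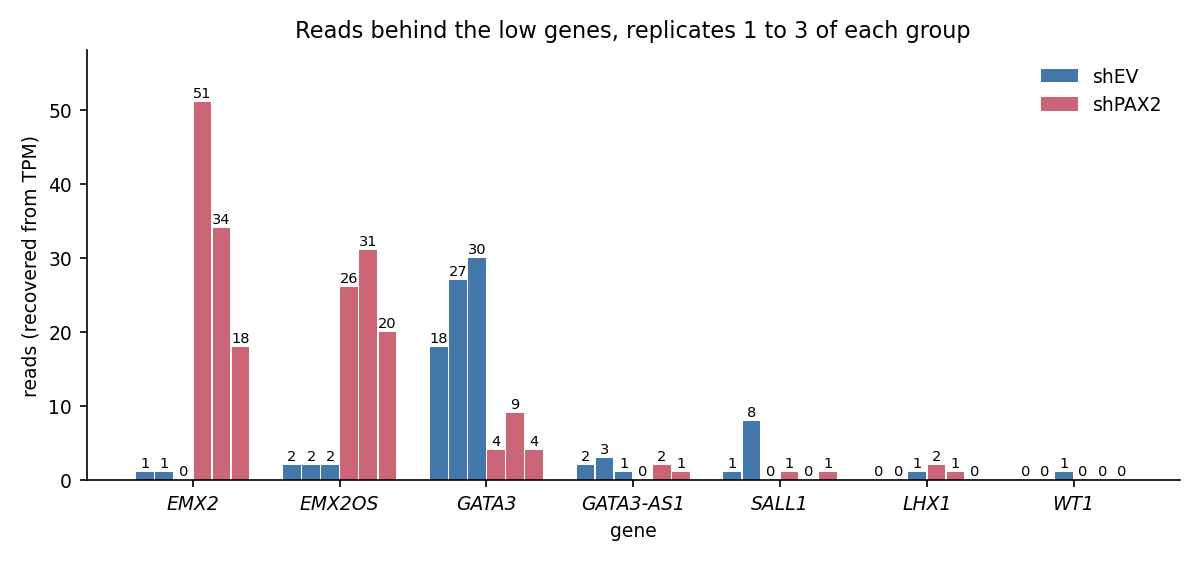
Whole reads recovered for the low genes, by library (blue shEV, red shPAX2, replicates 1 to 3 from left to right), with reads on the vertical axis, not scaled for depth, and genes on the horizontal axis. *EMX2* and *EMX2OS* have 0 to 2 reads in shEV libraries and 18 to 51 in shPAX2 libraries, *GATA3* has 18 to 30 against 4 to 9 in the deeper shPAX2 libraries, and *LHX1* and *WT1* have at most 2 reads.

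*GATA2* was by far the most abundant of the 8 genes and changed little. It lies at chr3:128198270-128212044 on the minus strand. Its shEV libraries measured 84.4, 74.7 and 69.6 TPM (1706, 2484 and 2366 reads), and its shPAX2 libraries 88.6, 96.5 and 89.2 TPM (5106, 4895 and 3276 reads). The gap between the groups, from 84.4 to 88.6 TPM, was smaller than the range within shEV. The shEV mean was 76.2 ± 7.53 TPM and the shPAX2 mean 91.4 ± 4.38 TPM, a ratio of 1.20. The log2 fold change was 0.26 (SE 0.08, 95% interval 0.088 to 0.44, limma adjusted p 0.0238), below the fold threshold. This call did not hold without shEV replicate 2 (0.25, adjusted p 0.0769), shEV replicate 3 (0.20, adjusted p 0.0841) or shPAX2 replicate 2 (0.23, adjusted p 0.0946), and over all 15 alternatives the limma adjusted p ranged from 0.00317 to 0.0946. By exact permutation of the libraries (two-sided) p was 0.1 for *GATA2*, as for the other tested genes and *PAX2*, the smallest value that 3 against 3 libraries allow. *GATA3* made up 1.28%, 1.32% and 1.53% of the summed *GATA2* and *GATA3* level in the shEV libraries and 0.0960%, 0.225% and 0.149% in the shPAX2 libraries, so *GATA2* supplied nearly all of it in both groups.

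*OSR1*, a zinc finger factor of the early intermediate mesoderm, was lower in shPAX2 by less than the fold threshold. It lies at chr2:19551246-19558384 on the minus strand. Its shEV libraries measured 9.54, 9.68 and 10.8 TPM (97, 162 and 185 reads), and its shPAX2 libraries 4.48, 6.35 and 5.41 TPM (130, 162 and 100 reads). All shPAX2 libraries lay below all shEV libraries, and the shPAX2 mean was 54.1% of the shEV mean. The log2 fold change was -0.84 (SE 0.12, 95% interval -1.12 to -0.56, limma adjusted p 0.000790), and it ranged from -0.95 to -0.62 over 15 alternatives.

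*MEIS1*, the HOX cofactor, fell less. It lies at chr2:66660584-66801001 on the plus strand. Its shEV libraries measured 9.37, 9.25 and 10.6 TPM (160, 260 and 305 reads), and its shPAX2 libraries 6.57, 6.53 and 6.83 TPM (320, 280 and 212 reads). The groups did not overlap, and the shPAX2 libraries differed among themselves by less than the shEV libraries. The shPAX2 mean was 68.2% of the shEV mean. The log2 fold change was -0.52 (SE 0.09, 95% interval -0.71 to -0.32, limma adjusted p 0.00150), and quantile normalization gave the value nearest to 0, -0.31 (adjusted p 0.0180, in a range of 0.000590 to 0.0180 over 15 alternatives). *MEIS1-AS3*, which overlaps its start by 19 bases, held 1, 1 and 3 reads in the shEV libraries against 1, 3 and 2 in the shPAX2 libraries.

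**Figure D3:**
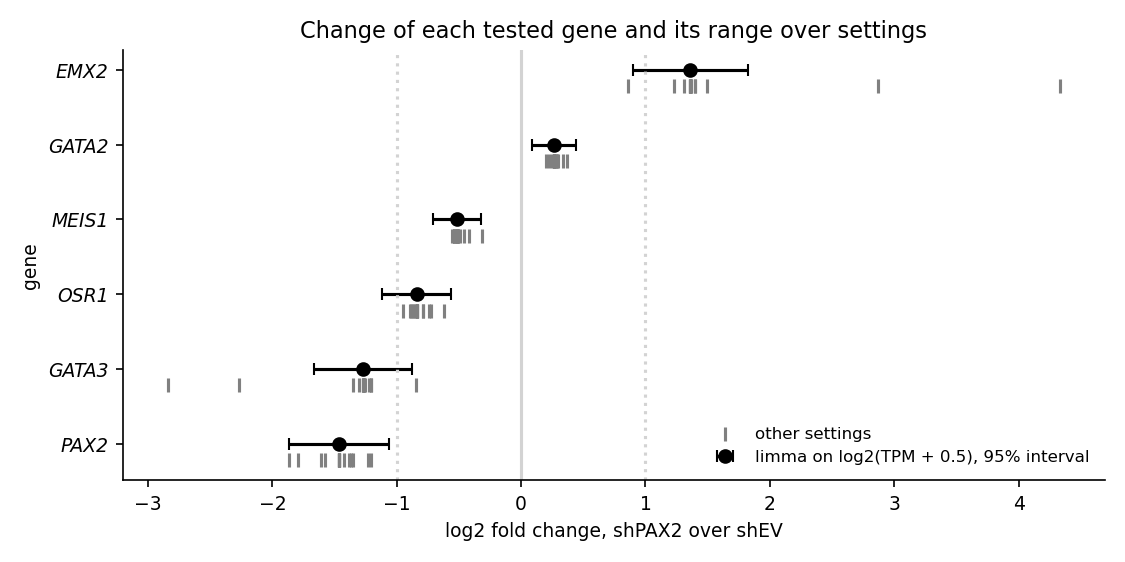
Log2 fold change of shPAX2 over shEV (horizontal axis) for the 5 tested genes and *PAX2* (vertical axis). Points and bars are the limma estimate on log2(TPM + 0.5) with its 95% interval, grey ticks the same gene under other settings, and dotted lines the fold threshold. *EMX2* and *GATA3* lie beyond the threshold in opposite directions and move most with the setting, from 0.86 to 4.33 and from -2.84 to -0.85.

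The remaining 3 genes could not be compared at this depth. *SALL1*, a zinc finger factor of the nephric mesenchyme (chr16:51169893-51186245, minus strand), held 1, 8 and 0 reads in the shEV libraries (0.0347, 0.169 and 0 TPM) against 1, 0 and 1 in the shPAX2 libraries (0.0122, 0 and 0.0191 TPM). The groups overlapped, 8 of the 9 shEV reads came from shEV replicate 2, and the limma adjusted p without a filter was 0.388. *LHX1*, a LIM-homeodomain factor of the nephric and Müllerian ducts (chr17:35294084-35301912, plus strand), held 0, 0 and 1 reads in the shEV libraries (0, 0 and 0.0323 TPM) against 2, 1 and 0 in the shPAX2 libraries (0.0381, 0.0216 and 0 TPM). *WT1* (chr11:32409321-32457110, minus strand) had 1 read in shEV replicate 3 (0.0334 TPM) and none in the other 5 libraries. That 1 read is the least that the recovery of reads can give. A count of 0 allows up to 3 reads, which for *WT1* is 0.0591, 0.0672 and 0.0928 TPM in shPAX2 replicates 1 to 3. The nephron and duct factors *WT1* and *LHX1* were therefore at or below the floor in all 6 libraries.

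Paralogues of these factors were examined as a list of 28 GATA, FOXA, SALL, OSR, MEIS, EMX, LIM-homeodomain and EGR genes, of which 22 had a row and 12 were tested. None passed the threshold in the higher direction and 3 passed in the lower. At an adjusted p under 0.05, 6 were lower, none was higher and 6 did not pass. The list thus stood at 25% past the threshold and 50% at an adjusted p under 0.05, against 4.54% and 42.8% of all tested genes. Like the lists that follow, it was chosen with earlier results of these data known, so an excess over all tested genes carries no weight of its own. The median log2 fold change was -0.31, against -0.10 for all tested genes, and -0.21 with median-of-ratios scaling, where that of all tested genes was -0.00018. Quantile normalization brought it to -0.12, with 2 genes past the threshold and 4 lower at an adjusted p under 0.05. *EGR1*, an immediate early gene whose zinc fingers bind nearly the same DNA sequence as WT1, fell from 37.6 ± 3.71 to 13.6 ± 0.740 TPM, with log2 fold change -1.43 (limma adjusted p 5.05e-06). *FOXA1*, the forkhead paralogue of *FOXA2*, fell from 6.82 ± 1.02 to 2.41 ± 0.299 TPM, with log2 fold change -1.33 (limma adjusted p 0.000106). *LHX4* fell from 6.39 ± 0.642 to 2.71 ± 0.260 TPM, with log2 fold change -1.10 (limma adjusted p 0.000136), and was not past the fold threshold with quantile normalization (-0.87) or with a pseudocount of 1. *MEIS2*, paralogue of *MEIS1* and named after its values were seen, went from 44.8 to 24.0 TPM, with log2 fold change -0.89 (limma adjusted p 4.70e-05).

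Proteins that these factors bind, such as LIM-domain binders, FOG proteins, PBX and PREP homeodomain proteins and subunits of the NuRD repressor complex, made a list of 35 genes with 34 rows and 29 tested. Of these 5 were higher, 11 lower and 13 did not pass at an adjusted p under 0.05, with a median log2 fold change of -0.15. The share at an adjusted p under 0.05 was 55.2% here and 42.8% over all genes tested. None passed the threshold in the higher direction and 1 in the lower, a share of 3.45% where all genes tested gave 4.54%. That gene, *TLE1*, a Groucho corepressor, went from 1.58 ± 0.349 to 0.186 ± 0.0844 TPM, with log2 fold change -1.59 (limma adjusted p 0.000321), and was named after its values were seen. It passed the filter only through its shEV libraries, at 1.18 to 1.80 TPM against 0.0940 to 0.260 TPM in shPAX2. Its call therefore carries no weight of its own. With median-of-ratios scaling 7 genes of the list were higher and 7 lower, and with quantile normalization 4 were higher and 7 lower. These counts take no account of position, and tested genes on chromosome 6 were shifted upward (median log2 fold change 0.40, and -0.11 on other chromosomes).

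Other genes of kidney and Müllerian duct development numbered 50, with 36 rows and 21 tested. The threshold was passed by 1 gene in the higher direction and 4 in the lower, and at an adjusted p under 0.05, 4 were higher, 10 lower and 7 did not pass. These shares are 23.8% and 66.7%, where all genes tested gave 4.54% and 42.8%. They take no account of position, and tested genes on chromosome 6 were shifted upward, as given for *CITED2* below. This list too was chosen with earlier results of these data known, so its excess carries no weight of its own. The median log2 fold change was -0.26 on the TPM scale, -0.15 with median-of-ratios scaling and -0.16 with quantile normalization. *CITED2*, a transcriptional coactivator that interacts with CBP and p300, rose from 26.0 ± 4.25 to 191 ± 15.5 TPM, with log2 fold change 2.87 (limma adjusted p 1.87e-06). It lies on chromosome 6, where the 565 tested genes with a position were shifted upward (median log2 fold change 0.40, and -0.11 on other chromosomes), and no gene among the 9 lies on that chromosome. Its paralogue *CITED1*, a marker of nephron progenitors, fell from 63.3 ± 3.80 to 25.8 ± 4.91 TPM, with log2 fold change -1.30 (limma adjusted p 0.000360). *RET*, the receptor kinase that drives branching of the ureteric bud, fell from 4.35 ± 0.398 to 1.50 ± 0.210 TPM, with log2 fold change -1.28 (limma adjusted p 0.000119). *CXXC5* fell from 13.4 ± 1.31 to 5.27 ± 0.224 TPM, with log2 fold change -1.26 (limma adjusted p 1.90e-05). The fourth lower gene, *JAG1*, a Notch ligand, went from 71.3 to 31.6 TPM (log2 fold change -1.16) and was named after its values were seen.

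**Figure D4:**
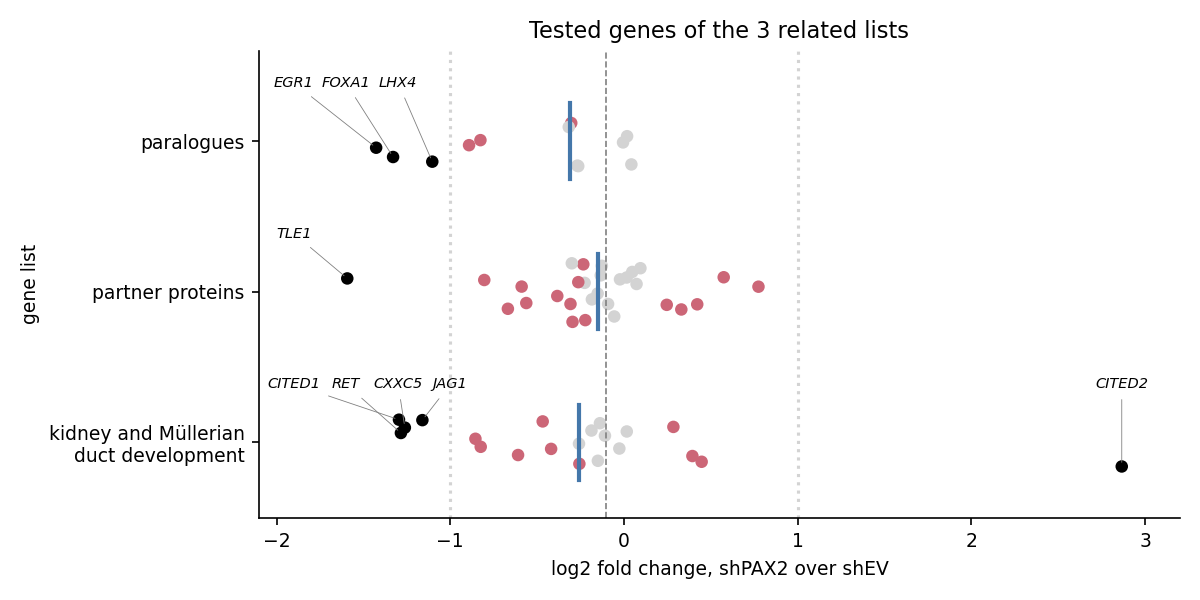
Log2 fold change of shPAX2 over shEV (horizontal axis) for the tested genes of the 3 related lists (vertical axis), black past the threshold, red with an adjusted p under 0.05 only and grey without. Blue bars are list medians (-0.31, -0.15 and -0.26), the dashed line is the median of all tested genes (-0.10) and dotted lines the fold threshold. *CITED2* at 2.87 stands alone beyond the threshold on the right, and vertical spread within a list carries no value.

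Genes whose profile over the 6 libraries was most like that of *EMX2* or *GATA3* were found by the root mean square difference of centred log2(TPM + 0.5) values. Nearest to *EMX2* were *BTBD17* (0.0862), with mean levels of 0.185 TPM in shEV and 1.20 TPM in shPAX2, and *HOXA9* (0.124), with 16.3 and 46.8 TPM. Nearest to *GATA3* were *NRG4* (0.0701), at 4.11 and 1.53 TPM, and *BCL3* (0.0766), at 27.3 and 11.2 TPM. *BTBD17* had at most 37 reads in a library, so its likeness to *EMX2* is that of a second low gene, while *HOXA9* and *BCL3* reached 1744 and 433 reads. The pseudocount shrinks the changes of *EMX2* and *GATA3* on this scale. In TPM the shPAX2 mean of *EMX2* was 25.7 times the shEV mean, and that of *GATA3* was 13.8% of it. The likeness to *BTBD17*, *HOXA9*, *NRG4* and *BCL3* therefore does not extend to the size of the change in TPM.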

How the data were processed

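The authors deposited TPM values for 17471 genes by symbol in 6 AN3CA libraries (stranded total RNA kit). The labels name bcl2fastq, STAR, Subread, featureCounts and edgeR, without versions, and hg19. Which tool counted the reads and with which strand setting is not given in the sources used here. Within each gene the TPM of the libraries stood in ratios of whole numbers (100% of genes, relative tolerance 1e-12), and whole reads and gene lengths were recovered from them. Whole-number lengths fitted 98.3% of genes. Libraries of a group differed by more than sampling noise (chi-square per degree of freedom 3.20 to 15.5), so none was a copy of another. The highest values were those of shPAX2 replicate 1, at 12.5 against replicate 2 and 15.5 against replicate 3. Replicates 2 and 3 of shPAX2 stood at 3.84, and the shEV pairs at 3.20 to 5.50.

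Genes with at least 0.5 TPM in at least 3 libraries entered a limma fit (version 3.58.1, R 4.3.3) on log2(TPM + 0.5) without covariates, moderated by eBayes with its trend and robust options, and tests were two-sided. On this scale the fold changes of low genes are understated. Fits without 1 library kept the tested genes of all 6. The fit was tested on simulated reads. Intervals of read ratios are exact conditional binomial (95%), and they and the floor of 3 reads cover counting error only.

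The 9 genes and all lists were chosen with earlier results of these data known. Genes named were the 9 and *PAX2*, from each list the genes past the threshold with a mean of at least 1 TPM (at most the 3 highest and 3 lowest log2 fold changes), antisense genes with a row, and for *EMX2* and *GATA3* the 2 nearest profiles. Positions are from GENCODE release 44 on GRCh37. Alternatives were other filters, pseudocounts, scalings, thresholds and moderation, the replicate block, voom on recovered reads and leaving out each library.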

Additional observations from a re-analysis of the deposited data

How the results depend on the processing

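The count of 2 genes past the threshold (*EMX2* and *GATA3*) was 0 with a pseudocount of 1, where both log2 fold changes shrank below 1 in size, and 0 with a filter at a TPM of 1, where neither was tested. It was 5 with no fold threshold, and 2 in the other alternatives, including each fit that left out 1 library. Those fits kept the genes tested with all 6 libraries. The filter asks for 3 libraries, which *EMX2* met only in shPAX2 and *GATA3* only in shEV. Applied again, the filter would have left *EMX2* untested without 1 shPAX2 library and *GATA3* untested without 1 shEV library. The count of 2 in those fits therefore depends on the kept set of genes. *PAX2*, *EMX2*, *GATA3*, *OSR1* and *MEIS1* kept their direction and an adjusted p under 0.05 in every alternative that tested them. *GATA2* kept its direction in 15 of 15, and 4 of them took its limma adjusted p above 0.05, with values of 0.26 (adjusted p 0.0516, no trend and not robust), 0.25, 0.20 and 0.23, the last 3 on leaving out shEV replicate 2, then shEV replicate 3, then shPAX2 replicate 2. The cause was not tested.

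The replicate numbers did not pair the libraries, since the deviations of same-numbered libraries correlated at -0.0523, 0.0815 and 0.0014. With the replicate block the count was 2, *PAX2* had a log2 fold change of -1.47 (limma adjusted p 0.0021) and *GATA2* 0.26 (0.0351), and no call on the 5 genes or *PAX2* changed. Depth limits *SALL1*, *LHX1* and *WT1*, for which limma without a filter called no difference. It also limits the size of the *EMX2* change, since the shEV level of *EMX2* rests on 2 reads.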
